A study of Mus musculus with 36 samples.

Results

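A set of 6 libraries of mouse embryonic fibroblasts lacking the kinase PERK (genotype PERK -/- in the labels) is described here: 3 from cells given BtdCPU and 3 from cells given BtdCPU together with thapsigargin (Tg). They were picked by genotype and treatment and are 6 of the 36 libraries of the series. Every change below is BtdCPU + Tg against BtdCPU in PERK-/- cells unless another comparison is named. Both groups carry the PERK deletion and both received BtdCPU, so thapsigargin is the one labelled difference. Another 3 comparisons of the series serve as reference, each of 3 libraries against 3: BtdCPU + Tg against BtdCPU in wild-type (WT) fibroblasts, Tg against the solvent DMSO in PERK-/- fibroblasts, and halofuginone + Tg against halofuginone in PERK-/- fibroblasts. The labels give neither dose, treatment time nor batch. They do not say how the deletion was made, how many clones or lines stand for each genotype, or whether replicates were separate cultures. A p-value therefore measures spread between libraries of a group, which may be technical and was estimated over all 36 libraries.

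Thapsigargin blocks the SERCA pumps that load calcium into the endoplasmic reticulum (ER), and proteins then misfold there. The ER has separate stress sensors. ATF6 is cut to release a transcription factor for chaperone genes, IRE1 splices Xbp1 mRNA and also cuts other ER-bound mRNAs (regulated IRE1-dependent decay, RIDD), and PERK phosphorylates the translation factor eIF2 alpha. That phosphorylation starts the integrated stress response (ISR): bulk translation falls while ATF4 is made, and ATF4 drives genes of amino acid supply and feedback. Other kinases reach the same eIF2 alpha site: HRI, which BtdCPU activates, and GCN2, which halofuginone activates by blocking prolyl-tRNA synthetase. The comparison asks what ER stress adds without PERK in cells whose ISR is already driven through HRI.

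Summed counts ran from 35810355 to 36782700 in the 6 libraries, within 32454257 to 37178107 over the series, and log2 CPM (counts scaled to a common library size) of replicates correlated at 0.990 to 0.992. The groups separated along the first principal component (47.2% of the variance), and the second (16.9%) set replicate 3 of both groups apart from replicates 1 and 2. Eif2ak3, the PERK gene, still gave reads in the libraries labelled PERK-/-: 8.62, 9.22 and 8.09 CPM with BtdCPU and 20.8, 17.8 and 23.7 CPM with BtdCPU + Tg. In WT it stood at 16.4 to 27.1 and at 72.7 to 74.9 CPM, and since the deleted stretch is not given in the labels, gene-level counts do not check the deletion. Of the WT libraries, BtdCPU replicate 2 stood apart: Ppp1r15a was at 69.4 CPM there against 231 and 193 CPM in replicates 1 and 3, so comparisons with WT are given without it where they turn on the ISR. Summed CPM of 10 fibroblast markers ran from 4538 to 5047 with BtdCPU and from 3940 to 4341 with BtdCPU + Tg, with Fap at 0 in every library and Twist1 called lower. Epithelial, endothelial, blood, muscle, pluripotent and adipocyte marker sums reached at most 3.81 CPM. The neural sum was 34.7 to 40.8 CPM against 49.6 to 60.8 CPM and held Map2, which was called higher. The part of these shifts in the results was not tested, and in bulk RNA fewer cells of a type and less RNA per cell cannot be told apart.

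Of 16065 genes tested, 2701 changed (16.8%, adjusted p under 0.05, edgeR's quasi-likelihood test with Benjamini-Hochberg adjustment): 1500 rose (9.34%) and 1201 fell (7.48%). Changes over 2-fold were more often falls, 377 genes against 279 rises. The groups did not overlap in CPM for 2675 of the 2701 genes, and the median change over all tested genes was 0.00 on the log2 scale. Among genes at an average log2 CPM of at least 2 whose groups did not overlap, and whose lower group had over 3 counts in each library, the largest rises were Ifit1, Cxcl10, Sdf2l1, Hspa5, Fgf21, Kif21b, Oasl1, Ifit3, Dnajb9 and Oasl2, with log2 fold changes of 3.08 down to 2.20. The largest falls were Egr3, Sema7a, Egr1, Prss22, Dusp6, Evi2a, Foxs1, Oaf, Phlda1 and Cx3cl1, from -4.11 to -2.73. By median change, ER chaperones, interferon-stimulated genes and ISR genes stood highest (0.77, 0.68 and 0.61) and immediate early genes lowest (-1.44), as the plot of changes by list shows.

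**Figure D1:**
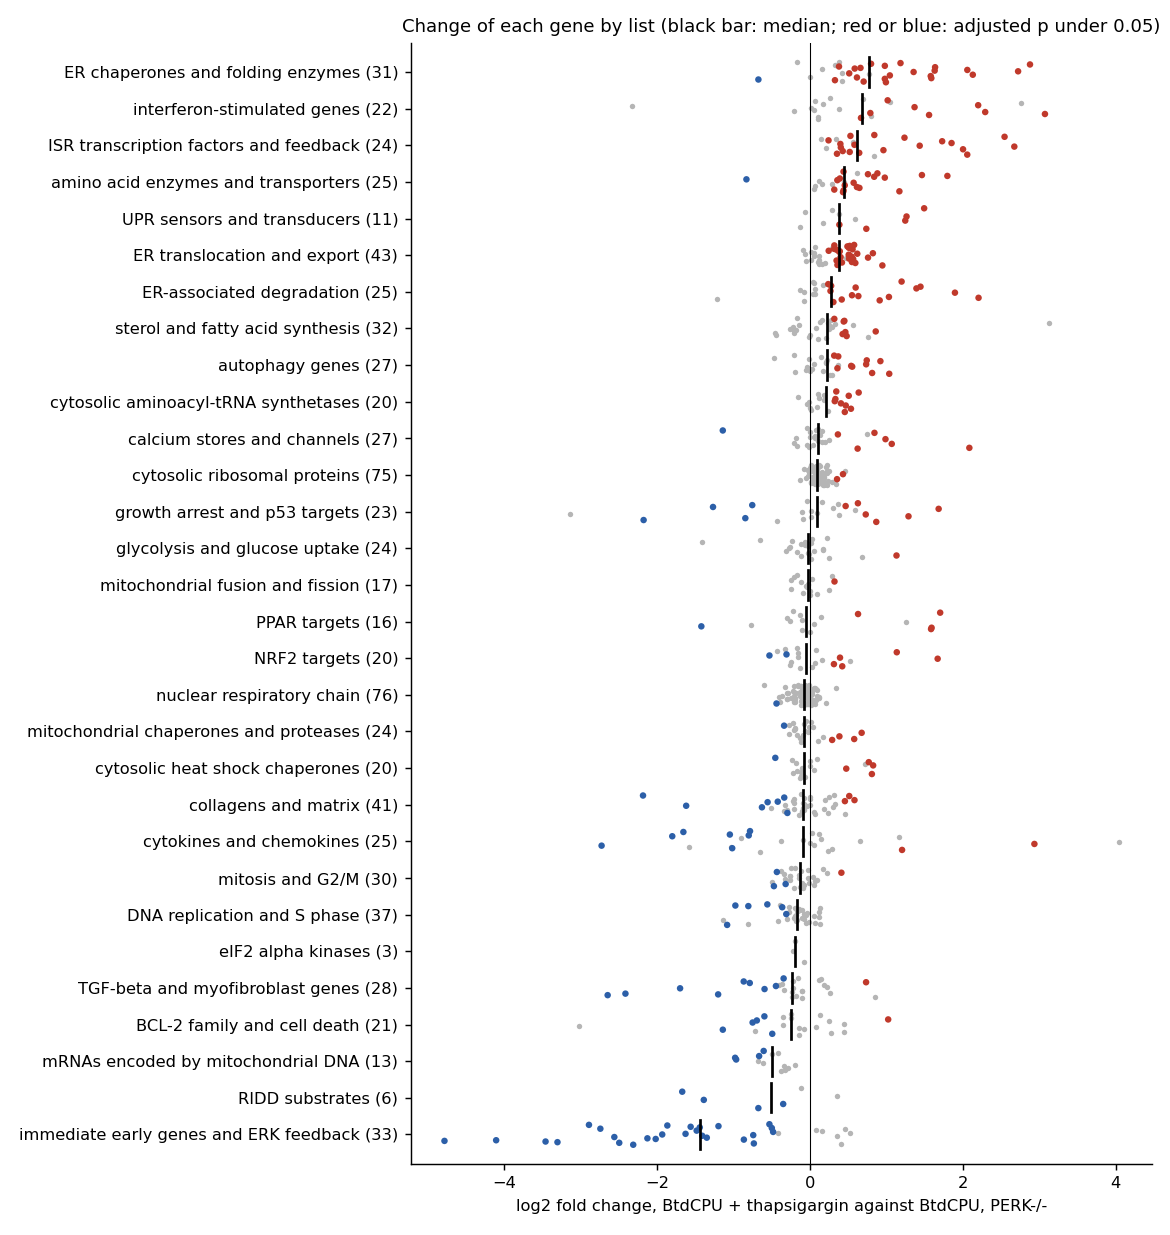
Log2 fold change of every tested gene in 30 gene lists (x axis, BtdCPU + Tg against BtdCPU in PERK-/- fibroblasts, 3 libraries against 3), lists ordered by their median (black bar), with the number tested in brackets. Red and blue points passed an adjusted p of 0.05 upwards and downwards. ER chaperones had the highest median, 0.77, and immediate early genes the lowest, -1.44.

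ER chaperones and folding enzymes rose as a group. Of 31 tested, 22 rose and 1 fell, with a median log2 change of 0.77 against 0.00 over all genes. Hspa5, which encodes the ER chaperone BiP, stood at 1600, 1561 and 1721 CPM with BtdCPU and at 9609, 10686 and 11977 CPM with BtdCPU + Tg. Its libraries did not overlap, and the log2 fold change was 2.72 ± 0.15 (SE; adjusted p = 5.4e-14). Sdf2l1, a partner of BiP's J-domain cochaperones, had 14.1, 16.5 and 24.8 CPM against 126, 122 and 160 CPM, a log2 fold change of 2.88 ± 0.28. Hsp90b1, the ER form of HSP90, went from 1817, 1710 and 1830 CPM to 4482, 4426 and 4810 CPM, and the lectin chaperone Calr from 1326, 1472 and 1863 CPM to 2877, 2975 and 3431 CPM. Rises of 1.58 to 2.06 were measured for Dnajc3, Creld2, Hyou1, Pdia4 and Manf. Cnpy4 was the member that fell, by 0.68 ± 0.17 on the log2 scale.

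The promoters of this list are shown because the list moved together and because one DNA element is well known in it. The ER stress response element (ERSE), to which the CCAAT factor NF-Y and ATF6 or XBP1 bind, was searched as CCAAT, 9 bases of any kind and CCACG on both strands of RefSeq promoter windows (GRCm38.p6, 250 bases before to 50 after each gene's start). It was found in 0.119% of 32851 windows and, counting a gene if any of its windows matched, in 0.188% of 11158 tested genes. Of the 28 chaperone genes with a window, 8 held it: Calr, Canx, Creld2, Dnajc3, Ero1b, Hsp90b1, Hspa5 and Pdia6. All 8 rose, with a median log2 change of 1.47. Of the 20 with a window and no such match, 11 rose and 1 fell (median 0.47). The related ERSE-II, searched as ATTGG, 1 base of any kind and CCACG, was found in 0.0365% of windows and 0.0807% of tested genes, Herpud1 among them. The letters CCACG are common to both searches. A match of letters describes the sequence and is not a measured binding site. Below, capitals mark the match, first in the whole 300-base window of Hspa5 (chr2:34771840-34772139, plus strand) and then in stretches around it for Calr (chr8:84847065-84847103, minus strand), Pdia6 (chr12:17266481-17266519, plus strand), Creld2 (chr15:88819510-88819548, plus strand), Dnajc3 (chr14:118937817-118937855, plus strand) and, for ERSE-II, Herpud1 (chr8:94386367-94386397, plus strand), each 5′ to 3′ in the direction of the gene. In Calr and Creld2 the element lies on the opposite strand, so its complement is read.
Hspa5: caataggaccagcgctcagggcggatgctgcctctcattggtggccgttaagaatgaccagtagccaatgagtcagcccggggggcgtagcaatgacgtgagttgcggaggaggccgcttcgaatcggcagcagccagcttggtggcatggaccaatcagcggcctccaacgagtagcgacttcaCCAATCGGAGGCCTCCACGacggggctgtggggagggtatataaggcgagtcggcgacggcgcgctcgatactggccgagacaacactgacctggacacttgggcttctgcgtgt
Calr: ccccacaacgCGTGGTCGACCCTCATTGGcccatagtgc
Pdia6: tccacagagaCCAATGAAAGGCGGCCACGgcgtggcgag
Creld2: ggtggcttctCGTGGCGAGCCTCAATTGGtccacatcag
Dnajc3: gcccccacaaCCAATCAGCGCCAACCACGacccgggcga
Herpud1: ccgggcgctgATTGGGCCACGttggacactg

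The machinery that clears and moves ER proteins rose with the chaperones, by less. Of 25 genes of ER-associated degradation, 15 rose and none fell (median 0.28). Dnajb9, a BiP cochaperone that restrains IRE1, went from 9.18, 7.77 and 7.31 CPM to 38.0, 31.9 and 42.2 CPM, a log2 fold change of 2.21 ± 0.16. Herpud1, whose ERSE-II is printed above, rose by 1.90 ± 0.16, the ubiquitin ligase Syvn1 by 1.45 ± 0.15 and its partner Sel1l by 1.39 ± 0.16. Syvn1 holds an ERSE too, and so does Derl3, which had at most 0.321 CPM in any of the 6 libraries and did not pass the test. Of 43 genes of translocation and export, 27 rose and none fell (median 0.38), led by Arfgap3 at 0.95 ± 0.13. Sec61a1, the translocon channel, rose by 0.55 ± 0.09. The motif TGACGTGG, the core of the element bound by XBP1 and ATF6, was present in 5 of the 33 genes of this list with a window, against 1.00% of 11158 tested genes with a window.

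Among 11 sensors and transducers of ER stress, 5 rose and none fell. Xbp1, the IRE1 target, went from 68.6, 65.0 and 68.9 CPM to 186, 188 and 197 CPM, a log2 fold change of 1.49 ± 0.14. Gene-level counts do not separate its spliced form. Atf6 went from 57.3, 53.8 and 54.3 CPM to 89.4, 82.9 and 103 CPM (0.74 ± 0.16), while thapsigargin without BtdCPU gave -0.23 ± 0.17 in PERK-/- cells. The difference between the Atf6 changes, 0.96 ± 0.23, passed the test (adjusted p = 0.0085). Creb3l2 rose by 1.25 ± 0.19, and Ern1, which encodes IRE1, had 0.39 ± 0.20 and did not pass.

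RIDD substrates fell. Of 6 tested, 4 fell and none rose (median -0.51). Scara3, a scavenger receptor, had 32.6, 33.4 and 32.6 CPM with BtdCPU and 8.75, 11.4 and 10.8 CPM with BtdCPU + Tg, a fall of 1.67 ± 0.20 on the log2 scale with no overlap. Bloc1s1, the most widely used RIDD marker, fell by 0.68 ± 0.22 (adjusted p = 0.028), a call lost without BtdCPU + Tg replicate 3 (adjusted p up to 0.18 over the libraries left out), BtdCPU replicate 1 or BtdCPU replicate 2. Its exons overlap Rdh5. In WT all 6 members fell (median -1.77) and all 6 changes differed between the genotypes, each higher in PERK-/-. Over halofuginone in PERK-/- cells 3 fell and none rose (median -0.48). Halofuginone without thapsigargin already stood low. The mean log2(CPM + 0.5) of the 6, less that of the PERK-/- BtdCPU group, was -0.61 ± 0.08 there (SD, n = 3). It was -0.63 ± 0.05 with BtdCPU + Tg, -1.39 ± 0.08 with halofuginone + Tg, 0.07 ± 0.13 with Tg and 0.05 ± 0.05 with DMSO. The part of IRE1 in these falls was not tested. Without BtdCPU, thapsigargin in PERK-/- cells gave a median of 0.19, with 3 members called higher and 2 called lower, and for Scara3 the fall over BtdCPU was deeper by 0.93 ± 0.28 (adjusted p = 0.038), a difference that did not pass without any 1 of 11 of the 12 libraries (adjusted p up to 0.13).

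Genes of the ISR rose further although BtdCPU was present on both sides. Of 24 transcription factors and feedback genes, 19 rose and none fell, with a median of 0.61. Ddit3, which encodes the stress factor CHOP, had 105, 95.8 and 94.8 CPM with BtdCPU and 374, 413 and 400 CPM with BtdCPU + Tg, a log2 fold change of 2.00 ± 0.21 (adjusted p = 1.5e-08). Its exons overlap Mars, and the sources used here do not say whether strand was used in counting. The same holds for Aldh1l2, Manf, Pdia4, Syvn1, Gabarapl1, Gadd45a, Txnip and Mest, whose exons also overlap another gene. Ppp1r15a, the stress-induced subunit that brings a phosphatase to eIF2 alpha, went from 144, 117 and 123 CPM to 417, 406 and 456 CPM (1.73 ± 0.22), and Atf3 from 14.96, 10.2 and 11.7 CPM to 48.8, 49.3 and 55.3 CPM (2.06 ± 0.20). Libraries of the groups did not overlap for any of these.

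Trib3, a pseudokinase that holds back ATF4 and CHOP targets, rose from 171, 146 and 136 CPM to 344, 349 and 374 CPM (1.24 ± 0.26). The secreted factors Fgf21 and Gdf15 rose by 2.68 ± 0.44 and 1.44 ± 0.43, the latter from 0.475 to 0.589 CPM to 1.03 to 2.14 CPM and not past the threshold without BtdCPU + Tg replicate 1, BtdCPU replicate 2 or BtdCPU replicate 3 (adjusted p up to 0.15). Chac1, which breaks down glutathione, rose by 0.96 ± 0.20. Atf4 itself moved little: 1209, 993 and 1016 CPM against 1320, 1456 and 1335 CPM, a log2 fold change of 0.35 ± 0.11 (adjusted p = 0.020) that did not hold without BtdCPU + Tg replicate 2, BtdCPU replicate 2 or BtdCPU replicate 3 (adjusted p up to 0.10). Values for Ddit4, Stc2, Nupr1, Tnfrsf10b and Adm2 lay between 0.15 and 0.84 and did not pass. The Sesn2 call (0.24 ± 0.08, adjusted p = 0.045) was lost without any 1 of the 6 libraries and under 3 other settings. The composite C/EBP-ATF element bound by ATF4 and its partners, searched as TGATGNAAT, was found in 0.965% of windows and 0.681% of tested genes with a window. In this list 2 of 20 genes held it, Fgf21 and Nupr1. Of the 18 without it 15 rose. The match in Fgf21, the list's largest rise, is on the opposite strand, in capitals, at chr7:45615612-45615640 (minus strand).
Fgf21: agacccccccATTGCATCAtccgtccagg

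The ISR rises were set against the other 3 backgrounds by tests of the difference, with no library in common between the comparisons. In WT cells, BtdCPU + Tg against BtdCPU raised 9 of the 24 (median 0.34), against 20.9% of all genes called higher there. The change was larger in PERK-/- for 10 of the 24 and smaller for none, against 12.4% and 12.3% of all genes. Without WT BtdCPU replicate 2 it was larger for 13 and without WT BtdCPU replicate 1 for 5, and smaller for none in either. WT started higher with BtdCPU. The mean log2(CPM + 0.5) of the 24 genes, less that of the PERK-/- BtdCPU group, was 0.79 ± 0.37 there (SD, n = 3). With BtdCPU + Tg it was 1.19 ± 0.10 in WT and 0.89 ± 0.02 in PERK-/-. The part of the starting level in the differences from WT was not tested. For Ddit3 the difference was 0.98 ± 0.29 (adjusted p = 0.011), for Ppp1r15a 1.07 ± 0.30 (adjusted p = 0.0080) and for Trib3, which had -0.20 ± 0.26 in WT, 1.44 ± 0.37 (adjusted p = 0.0044). Leaving out WT BtdCPU replicate 1 brought the differences for Ddit3 and Ppp1r15a to 0.75 and ended both calls (adjusted p = 0.060 for Ddit3). Over halofuginone, thapsigargin raised 1 of the 24 in PERK-/- cells (median -0.03), against 3.27% of all genes called higher and 3.16% lower. The change was larger over BtdCPU for 6 and smaller for none, where 1.09% and 0.934% of all genes differed. Atf3 (1.61 ± 0.27), Ppp1r15a (1.63 ± 0.30) and Ddit3 (1.16 ± 0.29) were among the 6, the Ddit3 difference passing in 6 of the 12 fits without 1 library (adjusted p up to 0.081). The starting levels differed: Ppp1r15a stood at 340, 354 and 348 CPM with halofuginone alone, against 117 to 144 CPM with BtdCPU, and the part of that in the difference was not tested. Thapsigargin alone raised 15 of the 24 and lowered 1 (median 0.71), against 15.2% and 12.7% of all genes. The change over BtdCPU was larger for 4 and smaller for 1, against 4.01% and 3.38% of all genes. Compared with thapsigargin alone, Atf3 and Ppp1r15a rose more over BtdCPU, by 1.27 ± 0.30 and 1.39 ± 0.30, while the Sesn2 change was smaller by 0.51 ± 0.12, a call lost without BtdCPU + Tg replicate 1 or Tg replicate 2 (adjusted p up to 0.11).

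Genes that supply amino acids followed. Of 25 enzymes and transporters, 17 rose and 1 fell (median 0.45), against 9.34% and 7.48% of all genes. Without BtdCPU + Tg replicate 3 the rises numbered 9 and without BtdCPU replicate 2 they numbered 11. Slc3a2, the heavy chain of amino acid exchangers, had 620, 594 and 740 CPM with BtdCPU and 2047, 2317 and 2431 CPM with BtdCPU + Tg, with no overlap and a log2 fold change of 1.80 ± 0.16. Its light-chain partner Slc7a11 rose by 0.88 ± 0.24 (adjusted p = 0.051 without BtdCPU + Tg replicate 3) and the folate enzyme Aldh1l2 by 1.17 ± 0.15. Asns, asparagine synthetase, went from 886, 838 and 804 CPM to 1135, 1129 and 1166 CPM (0.44 ± 0.10). Mthfd2, the mitochondrial folate enzyme, rose by 0.46 ± 0.11 here and fell by 0.33 ± 0.11 in WT, a difference of 0.79 ± 0.16 (adjusted p = 0.00049). Psat1 had 0.16 ± 0.11 and did not pass. Slc1a5, the glutamine carrier, was the member that fell, by 0.83 ± 0.12.

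In WT 6 of these 25 rose and 4 fell (median 0.07), against 20.9% and 19.5% of all genes. None of the changes was smaller in PERK-/- and 11 were larger, against 12.3% and 12.4% of all genes. That count was 15 without WT BtdCPU replicate 2, 6 without WT BtdCPU replicate 1 or 3, and 7 without BtdCPU + Tg replicate 3 or WT BtdCPU + Tg replicate 2. Over halofuginone none of the 25 rose by the edgeR test (none at an unadjusted p under 0.05 either). There 3.27% of all genes rose, so none of 25 is near that share. The change was larger over BtdCPU for 8 of the 25, against 1.09% of all genes. This count was 5 without BtdCPU + Tg replicate 3, BtdCPU replicate 2 or 3, halofuginone + Tg replicate 1 or halofuginone replicate 1. Slc3a2 differed from both, by 1.07 ± 0.22 and 1.59 ± 0.22. Of 20 cytosolic aminoacyl-tRNA synthetases, 9 rose and none fell, led by Wars at 0.64 ± 0.15. Thapsigargin alone raised 1 and lowered 7 of the 20, against 15.2% and 12.7% of all genes. The change was larger over BtdCPU for 5, against 4.01% of all genes, though for 1 without DMSO replicate 2. It was larger for 3 without DMSO replicate 1, Tg replicate 1 or Tg replicate 3. The other eIF2 alpha kinases gave no call in the 3 tested, by edgeR, by DESeq2 or at an unadjusted p under 0.05. Eif2ak1, which encodes HRI, had 41.5, 37.9 and 44.7 CPM against 37.1, 38.3 and 41.6 CPM. Its exons overlap those of Aimp2 and Ankrd61.

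**Figure D2:**
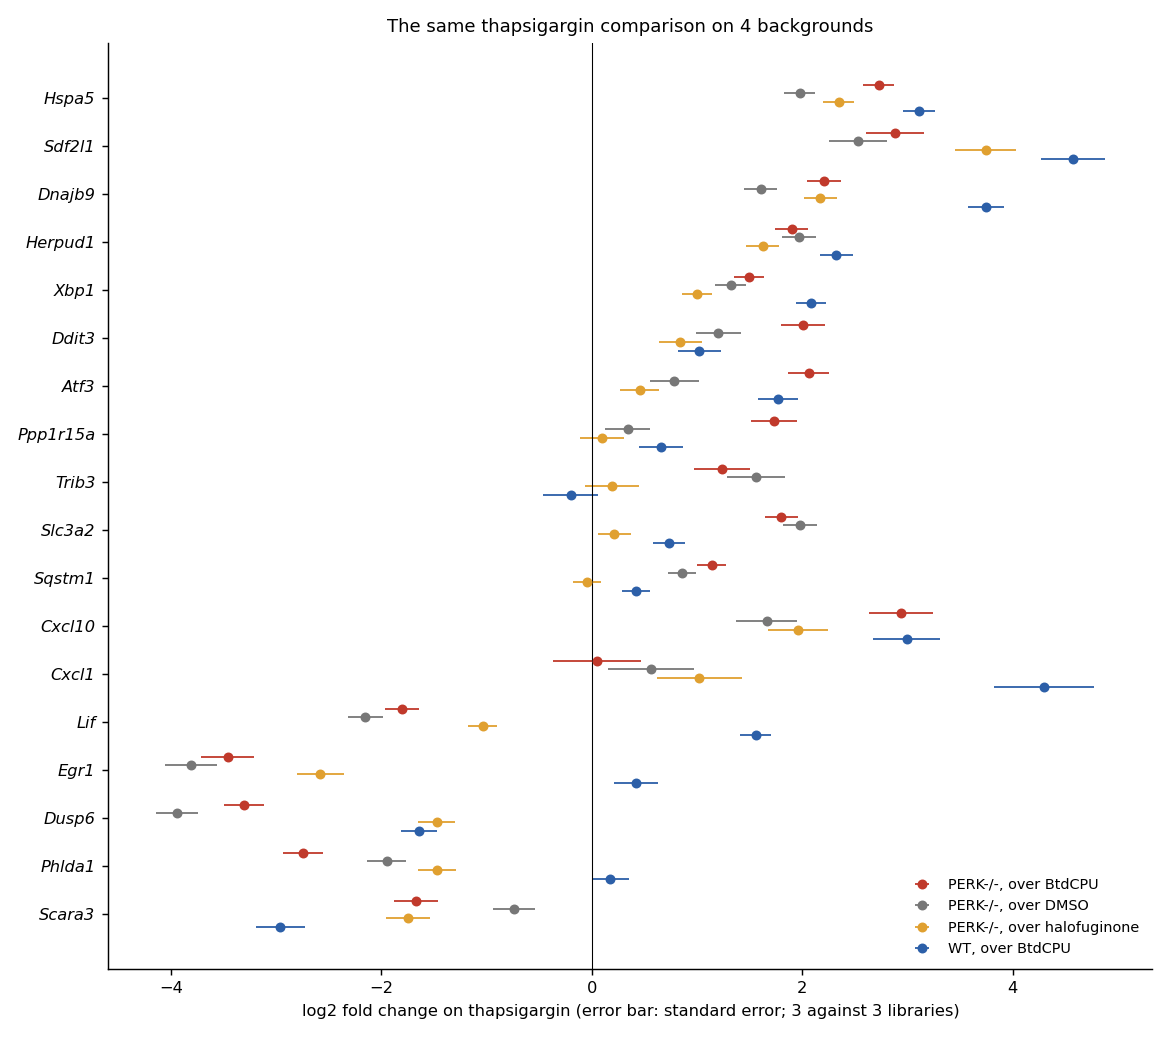
Log2 fold change on thapsigargin (x axis, error bars are standard errors, 3 libraries against 3) for 18 genes on 4 backgrounds: PERK-/- with BtdCPU (red), DMSO (grey) or halofuginone (yellow), and WT with BtdCPU (blue). Ppp1r15a rose by 1.73 over BtdCPU in PERK-/- and had 0.10 over halofuginone, and Egr1 fell by 3.46 there while WT had 0.42.

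Levels of whole lists placed these changes. The level of a list is the mean log2(CPM + 0.5) of its members, less the mean of the PERK-/- BtdCPU group. For the ISR list it stood at -1.36 ± 0.11 (SD, n = 3) with DMSO, -0.70 ± 0.12 with Tg, 0.00 ± 0.10 with BtdCPU and 0.89 ± 0.02 with BtdCPU + Tg. Halofuginone alone reached 0.82 ± 0.04 and halofuginone + Tg 0.89 ± 0.03. The range of halofuginone + Tg overlapped those of BtdCPU + Tg and of halofuginone, while the highest halofuginone library (0.858) was just under the lowest BtdCPU + Tg library (0.861). Amino acid genes ran from -0.81 ± 0.04 with DMSO over 0.00 ± 0.02 with BtdCPU to 0.52 ± 0.09 with BtdCPU + Tg, and stood at 0.50 ± 0.06 with halofuginone and 0.38 ± 0.03 with halofuginone + Tg. ER chaperones did not follow it: DMSO was at 0.05 ± 0.04, BtdCPU at 0.00 ± 0.08 and halofuginone at -0.19 ± 0.05, and the 3 groups with thapsigargin at 0.92 to 1.08. In WT the ISR list stood at 0.79 ± 0.37 with BtdCPU and 1.19 ± 0.10 with BtdCPU + Tg. Amino acid genes stood at 0.25 ± 0.25 and 0.36 ± 0.12 in these WT groups. These levels are descriptions and carry no test.

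**Figure D3:**
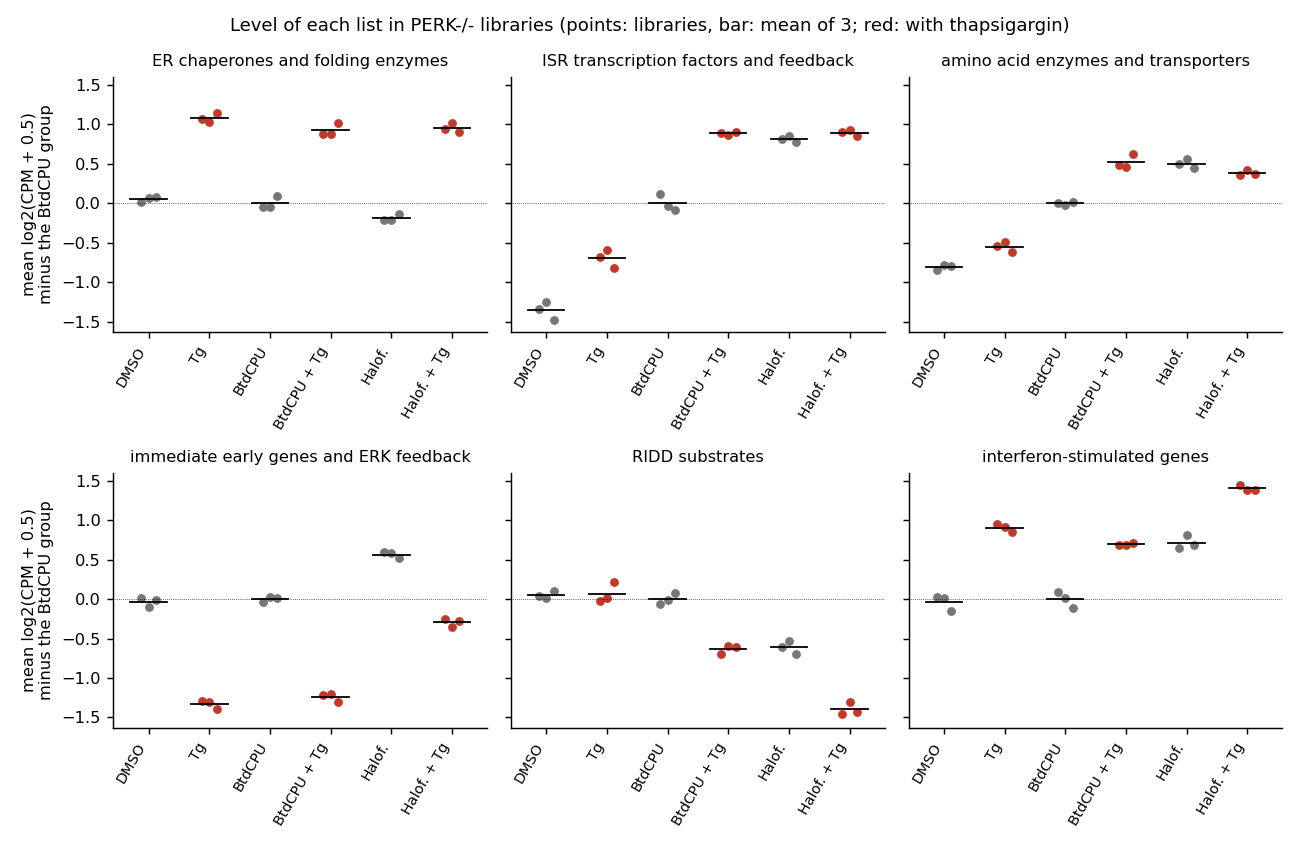
Level of 6 gene lists in the 18 PERK-/- libraries (y axis, mean log2(CPM + 0.5) less the BtdCPU group, points are libraries, bars are means of 3, red marks thapsigargin). The ISR list is near 0.89 with BtdCPU + Tg and with halofuginone + Tg, and the immediate early list is at -1.24 with BtdCPU + Tg and -1.33 with Tg.

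The deepest falls were in immediate early genes and the feedback genes of the ERK pathway, which growth factors switch on rapidly and which report how active ERK signalling is. Of 33 tested, 26 fell and none rose (median -1.44). The transcription factor Egr1 had 25.2, 23.1 and 29.2 CPM with BtdCPU and 1.82, 2.40 and 2.81 CPM with BtdCPU + Tg, a fall of 3.46 ± 0.25 on the log2 scale (adjusted p = 8.7e-12). Egr3 fell by 4.11 ± 0.31, from 6.42, 7.55 and 7.14 CPM. Egr2 went from 1.74, 1.90 and 1.85 CPM to 0.107 and 0.0817 CPM in replicates 1 and 2 and 0 in replicate 3. Dusp6, the phosphatase that switches ERK off, had 36.05, 36.5 and 33.5 CPM against 3.37, 3.40 and 3.95 CPM, a fall of 3.31 ± 0.19. Spry4 fell by 2.89 ± 0.46, Phlda1 by 2.74 ± 0.19 and Fos by 2.13 ± 0.45. The groups did not overlap for any of these 7 genes.

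Myc did not go with them: it had 220, 221 and 210 CPM with BtdCPU and 243, 229 and 256 CPM with BtdCPU + Tg (0.16 ± 0.19, adjusted p = 0.64). Thapsigargin alone lowered it by 1.29 ± 0.19, and the changes differed by 1.45 ± 0.26 (adjusted p = 0.00072). Dusp4 fell less over BtdCPU than alone, 0.73 ± 0.21 against 2.64 ± 0.27. The call for Dusp4 over BtdCPU was lost without BtdCPU + Tg replicate 2, BtdCPU + Tg replicate 3 or BtdCPU replicate 1 (adjusted p up to 0.068). In PERK-/- cells thapsigargin alone lowered 26 of the 33 and raised 4 (median -1.67), against 12.7% and 15.2% of all genes. Thapsigargin over halofuginone lowered 22 and raised none (median -0.87), against 3.16% and 3.27%. The change over BtdCPU was higher than that to thapsigargin alone for 5 and lower for 2 (1 in 10 of the 12 fits without 1 library). Of all genes 4.01% were higher and 3.38% lower. Compared with halofuginone, the change over BtdCPU was lower for 7 and higher for none, against 0.934% and 1.09%. In WT, 14 of the 33 fell and 8 rose (median -0.10). Of all genes 19.5% fell and 20.9% rose there, so the 8 rises were near that share. The changes differed for 24, of which 22 were lower in PERK-/- (19 without WT BtdCPU replicate 2). Of all genes 24.7% differed and 12.3% were lower. Egr1 had 0.42 ± 0.21 in WT, a difference of -3.88 ± 0.33, and Phlda1 had 0.17 ± 0.18, a difference of -2.92 ± 0.26. Dusp6 fell in both genotypes, by a further 1.66 ± 0.25 in PERK-/-. Of other lists, Ccnd1, cyclin D1, fell by 2.18 ± 0.19 and the anti-apoptotic Bcl2l1 by 1.14 ± 0.13. Ccne1 and Rrm2, genes of S phase entry, fell by 1.08 ± 0.19 and 0.81 ± 0.13 among 6 of 37 replication genes that fell. Of 30 mitotic genes, 3 fell and 1 rose, the rise lost without any 1 library but BtdCPU + Tg replicate 3. Among all genes 9.34% rose and 7.48% fell, so the 3 mitotic falls were near that share.

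**Figure D4:**
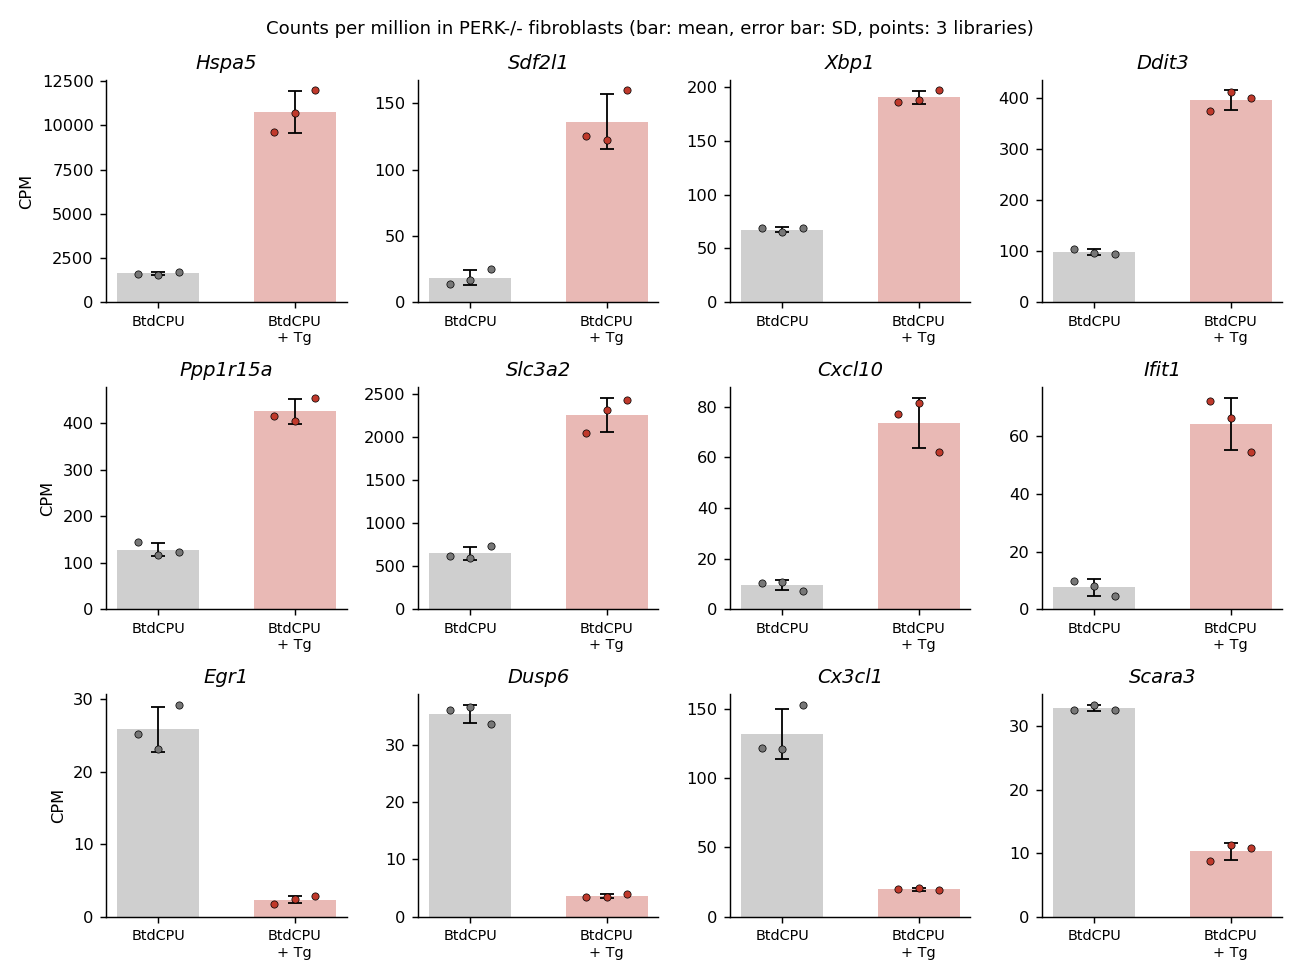
CPM of 12 genes in the 3 BtdCPU and 3 BtdCPU + Tg libraries of PERK-/- fibroblasts (y axis from 0, bars are means, error bars SD, points libraries). No gene shown has overlapping groups: Hspa5 rises from about 1627 to 10758 CPM and Egr1 falls from 25.8 to 2.34 CPM.

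A small set of interferon-stimulated genes rose. Of 22 tested, 8 rose and none fell (median 0.68), and without BtdCPU replicate 3 the rises numbered 5. Ifit1, an antiviral RNA-binding protein, had 10.01, 8.29 and 4.54 CPM with BtdCPU and 72.2, 66.1 and 54.4 CPM with BtdCPU + Tg (3.08 ± 0.64, adjusted p = 0.00088). Oasl1 rose by 2.42 ± 0.40, Ifit3 by 2.29 ± 0.67 and Oasl2 by 2.20 ± 0.63, with the Ifit3 call lost without BtdCPU replicate 2 or 3 and the Oasl2 call without BtdCPU replicate 3. Isg15 passed at an adjusted p of 0.034 and did not when any 1 of the 6 libraries was left out. Irf7 had 0.38 ± 0.78 and did not pass. Cxcl10, a chemokine induced by interferon, rose by 2.94 ± 0.30, from 10.6, 10.9 and 7.25 CPM to 76.9, 81.4 and 62.3 CPM. Its change was 1.28 ± 0.41 larger than with thapsigargin alone (adjusted p = 0.048), a call lost in 10 of the 12 fits without 1 library (adjusted p up to 0.13). Thapsigargin alone raised 12 of the 22 (median 1.22). None of the 22 changes differed from thapsigargin alone by the edgeR test or by DESeq2, against 7.39% of all genes by the edgeR test. Under the other settings that keep all libraries, up to 1 was higher and up to 5 lower over BtdCPU. At an unadjusted p under 0.05, 2 of the 22 differed, against 3376 of all 16065 genes. The interferon-stimulated response element, searched as GAAA, 2 bases of any kind and GAAA, was in 3.44% of all windows and 3.62% of tested genes with a window. In this list 11 of 17 genes with a window held it. Of those 11 genes 6 rose, and 2 of the 6 without it rose. Capitals mark it in Ifit1 (chr19:34640775-34640823, plus strand) and Cxcl10 (chr5:92349083-92349112, minus strand).
Ifit1: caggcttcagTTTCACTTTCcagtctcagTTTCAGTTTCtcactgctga
Cxcl10: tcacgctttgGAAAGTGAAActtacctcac

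Other cytokines differed from WT. Of 25 tested, 2 rose and 7 fell in PERK-/-, against 9.34% and 7.48% of all genes. WT had 18 rises and 2 falls with a median of 1.56, against 20.9% and 19.5% of all genes. The changes differed for 17, of which 16 were lower in PERK-/- (13 without WT BtdCPU replicate 2). Of all genes 12.3% were lower and 12.4% higher. Lif, an IL-6 family cytokine, had 7.39, 7.74 and 7.33 CPM with BtdCPU and 1.90, 2.50 and 2.03 CPM with BtdCPU + Tg, a fall of 1.80 ± 0.16, while it rose in WT by 1.56 ± 0.15. The neutrophil chemokine Cxcl1 had 15.7, 20.3 and 12.1 CPM against 17.4, 21.4 and 11.0 CPM (0.05 ± 0.42), and WT rose by 4.29 ± 0.48, from 3.05 to 6.92 CPM to 39.3 to 157 CPM. The monocyte chemokine Ccl2 had -0.66 ± 0.31 against a rise of 1.99 ± 0.31 in WT, a difference of -2.65 ± 0.44. Cx3cl1 fell in both, by 2.73 ± 0.16 here and 1.66 ± 0.15 in WT.

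The pump that thapsigargin blocks rose as a transcript. Atp2a2, the widely expressed SERCA gene, had 553, 546 and 604 CPM against 814, 824 and 985 CPM (0.62 ± 0.09), and Atp2a3 rose by 2.09 ± 0.55 from 0.396 to 0.679 CPM to 1.69 to 3.59 CPM. The Atp2a3 call did not hold without BtdCPU + Tg replicate 3 (adjusted p = 0.060). Of 27 calcium genes, 6 rose and Stim2 fell, a sensor of stored calcium that went from 49.1, 48.5 and 57.4 CPM to 23.3, 23.4 and 23.5 CPM. Rcan1, a calcineurin target, had 0.07 ± 0.14 here and rose by 1.71 ± 0.14 in WT.

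Of all genes 9.34% rose and 7.48% fell. Of 41 collagen and matrix genes, 3 rose and 7 fell (3 fell without BtdCPU + Tg replicate 3), and of 28 TGF-beta and myofibroblast genes, 1 rose (none without BtdCPU + Tg replicate 1 or 3 or BtdCPU replicate 1) and 9 fell. Ctgf went from 144, 180 and 175 CPM to 29.8, 28.9 and 20.8 CPM, a fall of 2.65 ± 0.33, and Thbs1 fell by 2.19 ± 0.32. Of the main fibrillar collagen chains, Col1a1 had -0.11 ± 0.17, Col1a2 0.05 ± 0.12 and Col3a1 -0.11 ± 0.18, none past the test, and the collagen chaperone Serpinh1 rose by 0.51 ± 0.10. In WT 30 of the 41 fell (median -0.80), against 19.5% of all genes. Of the 41 changes 20 were higher in PERK-/- and 1 lower (24 and 1 without WT BtdCPU replicate 2), against 12.4% and 12.3% of all genes. For Col1a2 and Col3a1 the difference was 1.20 ± 0.16 and 1.38 ± 0.25.

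Of 20 NRF2 targets, 5 rose and 2 fell (3 rose without BtdCPU + Tg replicate 1 or 3 or BtdCPU replicate 1 or 2, and 1 or none fell without BtdCPU + Tg replicate 1 or 3 or BtdCPU replicate 2 or 3), and of 27 autophagy genes, 10 rose and none fell. Hmox1, heme oxygenase, had 116, 115 and 123 CPM against 347, 350 and 428 CPM (1.67 ± 0.17), and the autophagy receptor Sqstm1 had 799, 777 and 711 CPM against 1602, 1602 and 1826 CPM (1.14 ± 0.13). Over halofuginone these had 0.07 ± 0.16 and -0.05 ± 0.13, and both differences passed (1.60 ± 0.23 and 1.18 ± 0.19). Nqo1, a classic NRF2 target, had -0.16 ± 0.13. Atg13 and Gabarapl1 rose by 1.04 ± 0.12 and 0.74 ± 0.13.

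The title of the series concerns mitochondrial remodeling in Perk-deficient cells. Of 17 fusion and fission genes, Mtfr1 rose (0.31 ± 0.09, lost without replicate 3 of either group, adjusted p up to 0.088) and none fell, and Opa1, Mfn2 and Dnm1l had 0.02 ± 0.09, -0.03 ± 0.13 and 0.10 ± 0.10. Of 24 mitochondrial chaperones and proteases, 4 rose and 1 fell: the protease Lonp1 rose by 0.68 ± 0.12, the chaperone Hspa9 by 0.39 ± 0.10, and the import subunit Timm17a fell by 0.34 ± 0.09, the last not past the threshold without BtdCPU + Tg replicate 3 (adjusted p up to 0.078). Of 76 nuclear respiratory chain genes 1 fell and none rose, where 46 fell in WT, against 19.5% of all genes that fell in WT. By the test of the difference, 19 of the 76 changes were higher in PERK-/- and none lower, against 12.4% and 12.3% of all genes. The 19 became 14 to 24 without 1 library and 3 to 35 under the other settings. Among 13 mRNAs encoded by mitochondrial DNA, 4 fell and none rose (median -0.50), all 13 had values below 0, and 7.48% of all genes fell. ND3 had 239, 195 and 185 CPM against 108, 127 and 79.6 CPM (-0.98 ± 0.33). Without BtdCPU + Tg replicate 1 or 3 none of the 13 passed by edgeR, and without BtdCPU replicate 1, 2 or 3 the falls numbered 1, 2 and 1. Of 32 genes of sterol and fatty acid synthesis 7 rose and none fell, against 9.34% of all genes that rose. The rises numbered 1 without BtdCPU replicate 1 and 2 without BtdCPU + Tg replicate 2, and 4 without BtdCPU + Tg replicate 3 or BtdCPU replicate 2. Over halofuginone 21 of the 32 rose, and Hmgcs1 and Insig1, which had -0.18 ± 0.18 and 0.08 ± 0.20 over BtdCPU, differed by -1.92 ± 0.26 and -1.68 ± 0.28.

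The counts of the next lists stand against 9.34% of all genes that rose and 7.48% that fell. Rises of glycolysis, ribosomal and death genes and falls of heat shock and PPAR genes did not exceed those shares. Of 24 glycolysis genes, Eno2 rose (1.12 ± 0.29) and none fell, and Txnip had 0.22 ± 0.35 where WT rose by 4.13 ± 0.37, a difference of -3.90 ± 0.50. Of 75 ribosomal protein genes 2 rose and none fell, and of 20 cytosolic heat shock chaperones 4 rose and 1 fell (2 rose without BtdCPU + Tg replicate 1, BtdCPU replicate 1 or BtdCPU replicate 3). The ribosomal count was 1 without BtdCPU + Tg replicate 1 or 3 or BtdCPU replicate 1 or 2. Of 16 PPAR targets 4 rose and 1 fell (none without BtdCPU + Tg replicate 1 or BtdCPU replicate 2 or 3), with the coactivator gene Ppargc1a at 1.70 ± 0.30. Of 23 growth arrest genes 6 rose and 4 fell, led by Gadd45a, which went from 74.7, 65.4 and 54.8 CPM to 209, 210 and 207 CPM. Of 21 death genes 5 fell and Casp4 rose, not past the threshold without BtdCPU replicate 3 (adjusted p = 0.064).

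Over all genes, the thapsigargin change over BtdCPU differed between PERK-/- and WT for 3974 of 16065 (24.7%), 1991 higher and 1983 lower in PERK-/-. With scaling by library size alone the count was 3977, of which 31.4% were higher against 50.1% here, and the median difference moved to -0.15. In WT 6489 genes (40.4%) changed on thapsigargin over BtdCPU. Of the 1500 genes that rose in PERK-/-, 39.0% rose in WT, and these were 17.4% of the WT rises. A further 206 rose here and fell in WT, and 161 fell here and rose in WT. Of 31 ER chaperones, 18 rose and 3 fell in WT (median 0.51, against 22, 1 and 0.77 in PERK-/-), where 20.9% and 19.5% of all genes did. The change was lower in PERK-/- for 8 and higher for 3 (5 without WT BtdCPU + Tg replicate 1). Of all genes 12.3% were lower and 12.4% higher, so the 3 did not exceed that share. Creld2 differed by -2.01 ± 0.21 and Sdf2l1 by -1.69 ± 0.38. For Hspa5 the difference, -0.38 ± 0.20, did not pass (adjusted p = 0.17).

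**Figure D5:**
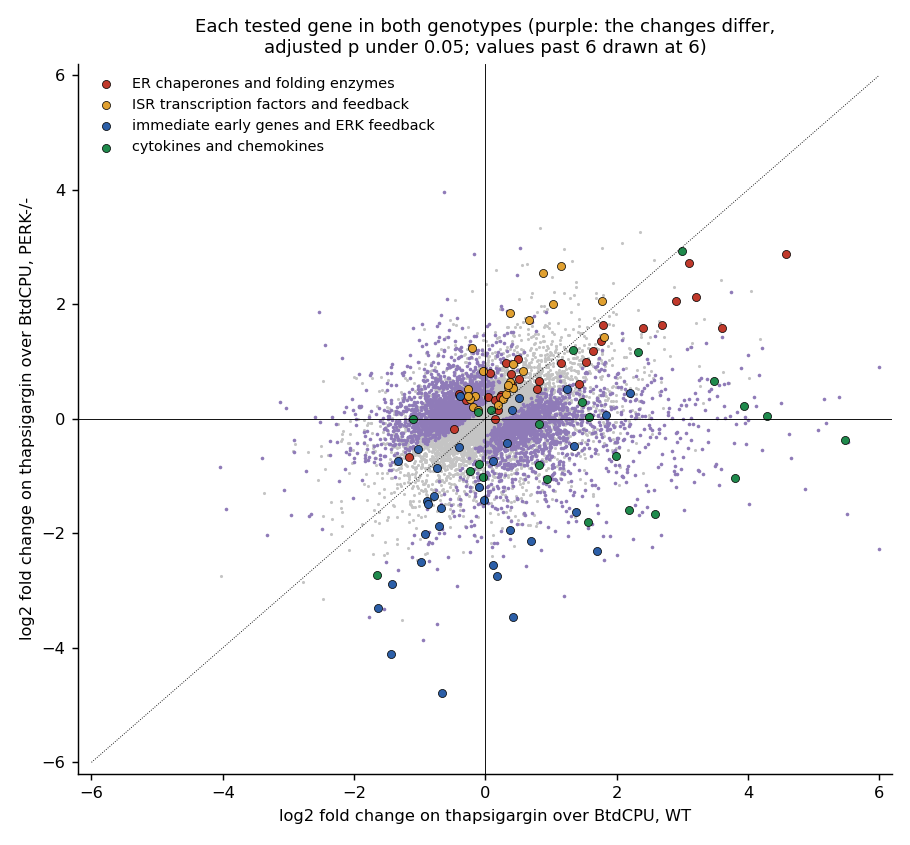
Log2 fold change of BtdCPU + Tg against BtdCPU in WT (x axis) and PERK-/- (y axis) for 14234 tested genes with a standard error in both, values past 6 drawn at 6. Purple genes differ between genotypes (3724 of those drawn). Immediate early genes (blue) lie low on the y axis around 0 on the x axis, and cytokines (green) reach far right with values near or under 0 on the y axis.

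Inside PERK-/- cells fewer genes passed the tests of a difference between backgrounds, and these counts moved with the fit used. Thapsigargin alone changed 4487 genes (27.9%), and its change with BtdCPU differed for 1187 (7.39%). Hspa5 was the ER chaperone that differed, by 0.75 ± 0.20 in favour of BtdCPU (adjusted p = 0.016): Tg brought it from 1494 to 1670 CPM to 5910 to 6364 CPM. Mest and Klf2 rose by 2.33 ± 0.18 and 1.54 ± 0.18 with thapsigargin alone and had 0.02 ± 0.18 and -0.42 ± 0.18 over BtdCPU. Over halofuginone 1033 genes changed (6.43%), and the change differed from that over BtdCPU for 325 (2.02%), of which 53.8% were higher over BtdCPU (38.2% of 280 with scaling by library size alone). Cdsn, Kif21b and Car6 had the largest positive differences among named genes (2.56 ± 0.42, 2.45 ± 0.43 and 2.43 ± 0.57), and Car6 lost its call without BtdCPU + Tg replicate 3, BtdCPU replicate 2 or halofuginone + Tg replicate 1 (adjusted p up to 0.087). Cdsn had 26.9, 20.7 and 37.4 CPM with BtdCPU and 94.4, 94.8 and 175 CPM with BtdCPU + Tg (2.10 ± 0.31) and -0.46 ± 0.29 over halofuginone, where it started at 84.4, 96.1 and 104 CPM.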

How the data were processed

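RNA was measured by strand-specific sequencing of ribosome-depleted or mRNA-selected libraries of mouse embryonic fibroblasts, per the labels' protocols. The authors deposited a table of estimated counts per gene symbol for all 36 libraries. The submitters' processing notes name GRCm39 and DESeq, and the counting tool, annotation and strand setting are not given in the sources used here. In the table, 50.6% of values are 0.025, read here as 0, and 2.69% of the others were not whole (tolerance 1e-06) and were rounded. Left out were 27 entries whose symbols had turned into dates (0.206% to 0.278% of counts), and 39 symbols on several entries were summed, leaving 36856.

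Counts were tested with edgeR 4.0.16 (R 4.3.3): low counts removed with filterByExpr (16065 genes kept), TMM scaling, 12 group means over 36 libraries, robust quasi-likelihood tests, 24 residual degrees of freedom before moderation, and Benjamini-Hochberg adjustment over all genes kept with a threshold of 0.05. A standard error is the log2 fold change divided by the root of F, and is not given where a group has at most 3 counts in every library. Differences between thapsigargin changes are contrasts of 4 groups in the same fit. On simulated counts of the BtdCPU comparison with 200 changed genes, 48.5% of changes of 0.5 (log2), 93.9% of 1 and 100% of 2 were recovered. Genes of low CPM were given no change, and 200 is fewer than the 2701 genes called in the data. The rates therefore do not cover low counts and may differ at the threshold of the real data. Exon overlaps come from GENCODE M21, matched by symbol for 14071 tested genes. Promoter windows are RefSeq's on GRCm38.p6, another build than the counts. They were matched by symbol for 11158 tested genes.

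The members and gene lists were chosen with earlier results of these data known. Named are the key genes of each list, its largest change in each direction, the 10 largest rises and falls at an average log2 CPM of at least 2 with no overlap between groups, and the 4 largest differences in each direction against each other background. Lists did not cover Fam8a1, Tigar, Mx1 and Mx2, which matched no symbol, nor 8 genes under the count filter. Alternatives were DESeq2 1.42.0 and its size factors, library size alone, no filter on low counts, the compared groups alone, a replicate block, and each library left out in turn. Results for some list members are not reported here.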

Additional observations from a re-analysis of the deposited data

Results flagged for a closer look

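Thapsigargin changes differed between backgrounds, by tests of the difference, for 3974 genes between PERK-/- and WT over BtdCPU, for 1187 genes in PERK-/- with and without BtdCPU, and for 325 genes in PERK-/- over BtdCPU and over halofuginone.

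Among named genes, 8 moved in opposite directions in the 2 genotypes over BtdCPU, and 1 did so in PERK-/- with and without BtdCPU. Lif fell in PERK-/- and rose in WT, a difference of -3.36 (log2). The other 7 rose in PERK-/- and fell in WT. Mthfd2 differed by 0.79, and the fatty acid desaturase gene Scd1 by 0.90, with 97.7, 118 and 109 CPM against 138, 163 and 141 CPM in PERK-/- and 127, 125 and 132 CPM against 101, 99.3 and 78.8 CPM in WT. The lipid droplet gene Plin4 differed by 3.74, the autophagy gene Wipi1 by 0.62 and the ribosomal protein gene Rpl9 by 0.86. Aplp1 and Pcdhgb4 had fitted differences of 6.11 and 4.66, but both were at 0 in the 3 PERK-/- BtdCPU libraries and at most 0.272 CPM with BtdCPU + Tg, so these depend on the fit and are no measure of size. Pcdhgb4 also shares exons with other protocadherin genes. Snhg12, a host gene of small nucleolar RNAs, rose by 1.18 ± 0.21 over BtdCPU and fell by 0.66 ± 0.22 without it, a difference of 1.84.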

How the results depend on the processing

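No named gene past the threshold reversed direction under the alternatives run. Counts were compared by size alone, and the share of called genes that were higher was not stable. With library size alone, 2481 of the 2701 changed genes were called again in the same direction. So were 3232 of the 3974 differences from WT and 253 of the 325 differences from halofuginone. Among differences from halofuginone, 53.8% were higher over BtdCPU, with 38.2% (library size alone) to 58.1% (replicate block) under the alternatives. Among differences from WT, 50.1% were higher in PERK-/-, with 31.4% (library size alone) to 55.7% (without BtdCPU replicate 3). List medians near 0 did change sign: that of PPAR targets, -0.05, ran up to 0.04, and that of cytokines, -0.09, up to 0.04. With scaling by library size alone, 48.4% of changed genes were higher, against 55.5%. The count of changed genes, 2701, was 4277 in a fit of the compared groups alone and 4318 with the replicate block within genotype. Differences with and without BtdCPU, 1187 genes, became 2840 and 2757 in the same fits. Differences from halofuginone, 325 genes, became 869 and 1133 there, 549 with the DESeq2 test and 667 with no filter on low counts. Leaving out 1 library gave 1855 to 2236 changed genes, 3453 to 4270 differences from WT (3974 with all), 760 to 1135 with and without BtdCPU (760 without Tg replicate 3), and 124 to 270 against halofuginone. The lowest of these were 124 without BtdCPU + Tg replicate 3 and 128 without halofuginone + Tg replicate 1. Fits without a library also have fewer samples, and the cause of the other shifts was not tested.

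Replicate numbers are shared between groups in the labels. Deviations of same-numbered BtdCPU and BtdCPU + Tg libraries correlated at 0.067, 0.031 and 0.160, and BtdCPU replicate 1 correlated best with BtdCPU + Tg replicate 2 (0.075), so the numbers were not taken as pairs. Same-numbered libraries correlated at 0.026, 0.280 and 0.255 in WT, at 0.068, 0.101 and 0.166 for DMSO and Tg, and at 0.044, 0.136 and 0.208 for halofuginone. With the replicate block, differences from WT numbered 5721.

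Over named genes and settings, 4379 values kept their direction and side of the threshold, 371 lost the call and 53 gained it. Mitochondrially encoded mRNAs that fell, 4, numbered 5 to 12 under settings that keep all 6 libraries. In the simulation, which changed no genes of low CPM, changes of 0.5 (log2) were recovered in 48.5% of cases. A gene that did not pass is therefore not shown to be level.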

Other observations

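Some genes set the 2 genotypes apart before any effect of thapsigargin. Meg3, a maternally expressed long noncoding RNA, was at 0 in the 3 PERK-/- BtdCPU libraries and at 0.642, 0.436 and 1.00 CPM with BtdCPU + Tg, against 26.9, 49.98 and 47.2 CPM with BtdCPU in WT. Aplp1, a relative of the amyloid precursor gene, was at 0 in the PERK-/- BtdCPU libraries and at 14.0, 13.9 and 13.5 CPM in WT. Mest, a paternally expressed gene, went the other way, with 8.32, 9.98 and 10.3 CPM in PERK-/- and 0.033, 0.0567 and 0.122 CPM in WT under BtdCPU. The genotype and the history of each cell line cannot be told apart in these labels.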
